A study of Homo sapiens with 21 samples.

Results

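The Kruppel-like factors (KLFs) described here are 10 genes of this family, KLF2, KLF3, KLF4, KLF5, KLF6, KLF7, KLF9, KLF10, KLF11 and KLF13, picked by gene symbol from the 23368 genes listed in the RNA-seq table. They were chosen with earlier results of these data known, so their counts beside the shares of all genes are not a test of the family. All 10 had values that varied between libraries and were tested among 19694 such genes. The RNA came from hTERT-HPNE, an immortalized, nontransformed human pancreatic cell line that expresses the telomerase catalytic subunit and was grown with serum, EGF and puromycin. There were 7 groups of 3 biological replicates, or 21 libraries: untreated cells at 0 h, and cells collected 4, 8 or 24 h after either 300 µM H2O2 or 400 ng/ml neocarzinostatin (NCS). H2O2 is an oxidant that damages DNA and many other cell components, whereas NCS is an enediyne antibiotic that cuts the DNA backbone, and the comparison asked how one cell line responds to an oxidant and to a direct DNA-breaking agent. The medium was exchanged for fresh medium when the agents were added. The untreated cells stand for 0 h only, so in every comparison with them the agent, the fresh medium and the time since its addition cannot be told apart, whereas H2O2 and NCS at the same time share the fresh medium and the time. A single cell line was used, and the labels do not say how the biological replicates were kept apart.

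KLFs are transcription factors with zinc fingers at the carboxy terminus, which bind GC-rich and CACCC sequences in promoters and enhancers. They share these sites with the related SP factors and differ mainly in the part of the protein that recruits partners: KLF3 binds the corepressor CtBP, KLF9, KLF10, KLF11 and KLF13 can bind SIN3A, and KLF2, KLF4, KLF5, KLF6 and KLF7 act largely as activators, some of them also as repressors. Several KLFs are early-response genes that are transcribed within minutes to hours of serum, growth factors, TGF-beta or stress, and they take part in decisions between proliferation, differentiation and arrest in epithelial cells.

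Values are given as the deposited rLog values, which are on the log2 scale, adjusted for library size and shrunk, most strongly for genes with few reads. The sequencing depth behind these values is unknown, since no counts were analysed here. Values are compared within a gene and not between genes, since they are not per length. The library medians lay between 7.14 and 7.19, no pair of libraries was identical, and no library was set aside. Differences are log2 differences of group means from limma with Benjamini-Hochberg adjustment over all 19694 genes. A gene is said to have risen or fallen where the adjusted p was under 0.05, and to be differentially expressed where the difference also exceeded 1. Intervals are 95% intervals of the same fit.

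The cell line was checked against marker genes. Of 8 markers of duct and HPNE-type cells, 5 had an untreated mean of 5 or more, with VIM (17.05) the highest and NES at 12.12, but the duct genes KRT19 (0.60) and CFTR (-1.34) were near the bottom of the scale. All 5 fibroblast and mesenchymal markers were high, led by COL1A1 (17.97). None of the acinar, endocrine, blood or endothelial markers reached 5. The log2 of the summed mesenchymal level was 18.55 in untreated cells, between 18.14 and 18.20 in the H2O2 groups and between 18.52 and 18.66 in the NCS groups, a sum that is not per length and is carried by COL1A1 and COL1A2. COL1A1 was at 17.53 at 4 h of H2O2, whereas THY1 was at 9.30 in untreated cells and 9.33 there, and PDGFRB went from 12.63 to 12.50 at 4 h and 12.80 at 24 h of H2O2. The summed level of the duct and HPNE-type list, carried by VIM, went from 17.13 to 17.29 at 4 h of H2O2 and 16.88 at 24 h. The part of these shifts in the KLF differences was not tested, and in bulk RNA fewer cells of a type and less RNA per cell cannot be told apart.

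Promoter sequences are shown for 4 members, as examples. The windows run from 250 bases before to 50 bases after the start of transcription and come from RefSeq (GRCh38.p14), which is not the hg19 build named in the submitters' processing notes. Of the 10 members, 8 were in the table, with 13 windows, and KLF3 and KLF10 were not. KLF4 (chr9:107489720-107490019, minus strand) is shown because it rose most, with its 4 GC boxes (GGGCGG or its reverse complement) in capitals. KLF2 (chr19:16324576-16324875, plus strand) is shown because it fell most, with its MEF2 site in capitals, a sequence through which ERK5 signalling is known to act on this gene. KLF11 (chr2:10043971-10044270, plus strand) has a CRE (TGACGTCA, the CREB and ATF site) in capitals, and KLF7 (chr2:207167197-207167496, minus strand) a CArG box, the SRF site. KLF11 and KLF7 have other windows, which are not shown, and these were picked for the named site. The CRE and the CArG box were each in 1 of the 13 windows. Another KLF7 window, from base 207166807, held 4 GC boxes.
KLF4: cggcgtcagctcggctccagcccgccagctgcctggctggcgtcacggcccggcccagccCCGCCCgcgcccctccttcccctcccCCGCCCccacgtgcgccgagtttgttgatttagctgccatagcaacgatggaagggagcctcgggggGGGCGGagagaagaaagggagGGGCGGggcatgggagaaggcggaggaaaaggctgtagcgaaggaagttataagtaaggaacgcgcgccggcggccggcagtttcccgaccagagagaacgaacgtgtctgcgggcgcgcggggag
KLF2: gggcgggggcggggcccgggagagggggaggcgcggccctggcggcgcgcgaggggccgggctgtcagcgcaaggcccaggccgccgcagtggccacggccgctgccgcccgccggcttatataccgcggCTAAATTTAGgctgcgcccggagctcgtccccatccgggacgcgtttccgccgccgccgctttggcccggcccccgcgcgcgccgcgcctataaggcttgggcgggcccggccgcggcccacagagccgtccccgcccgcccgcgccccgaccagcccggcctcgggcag
KLF11: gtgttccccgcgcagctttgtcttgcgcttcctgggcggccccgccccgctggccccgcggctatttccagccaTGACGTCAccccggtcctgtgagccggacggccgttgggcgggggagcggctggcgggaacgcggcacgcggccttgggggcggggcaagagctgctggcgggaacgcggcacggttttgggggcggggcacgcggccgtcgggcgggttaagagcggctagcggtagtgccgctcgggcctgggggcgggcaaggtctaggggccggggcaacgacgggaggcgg
KLF7: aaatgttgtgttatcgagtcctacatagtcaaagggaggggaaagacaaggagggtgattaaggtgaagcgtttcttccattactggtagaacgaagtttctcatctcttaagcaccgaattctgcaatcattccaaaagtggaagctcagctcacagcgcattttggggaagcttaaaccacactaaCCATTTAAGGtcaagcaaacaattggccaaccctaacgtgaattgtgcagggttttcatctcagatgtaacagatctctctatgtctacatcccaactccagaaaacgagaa

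In a search of both strands, the GC box was found in at least 1 window of 7 of the 8 members and in 8 of their 13 windows, KLF9 being the exception, beside 45.0% of all 35116 RefSeq windows. The CACCC box (CACCC), the other sequence that KLFs bind, was in windows of KLF5, KLF7, KLF11 and KLF13, or 7 of 13, beside 59.9% of all windows. The CRE of KLF11 lay at -176 from its start, its last bases overlapped a CACCC box at -170, and such a CRE was in 1.85% of all windows. The MEF2 site of KLF2 lay at -120 (2.99% of all windows held one), the CArG box of KLF7 at -62 (1.29%) and a TATA box (TATAAA) of KLF5 at -194 (11.5%). No member window held an AP-1 site (TGANTCA, 7.71% of all windows), an antioxidant response element (TGACNNNGC, 13.3%), a C/EBP-ATF response element (TGATGCAA, 0.866%) or a SMAD site (GTCTAGAC, 0.202%). These matches describe letters in short windows, and enhancers were not searched. The KLF2 window was 80.7% G and C and that of KLF9 32.7%, around a median of 58.7% over all windows.

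**Figure D1:**
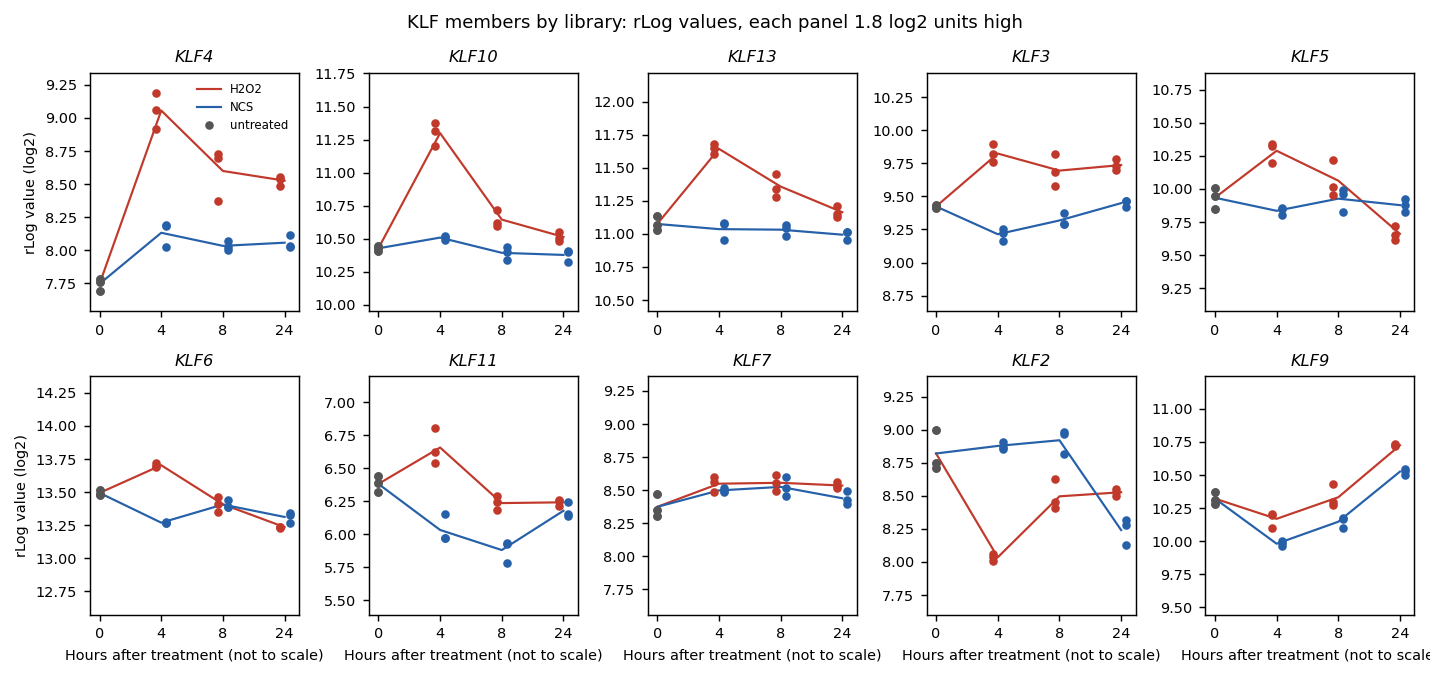
rLog values (log2 scale) of the 10 KLF genes in each library at 0, 4, 8 and 24 h; points are single libraries and lines join group means, with untreated cells in grey, H2O2 in red and NCS in blue, and the time axis is not to scale. KLF4, KLF10 and KLF13 peak at 4 h of H2O2, KLF2 is lowest there, and KLF9 is highest at 24 h in both treatments.

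At 4 h of H2O2 all 10 KLFs differed from untreated cells. The 8 that rose were KLF3, KLF4, KLF5, KLF6, KLF7, KLF10, KLF11 and KLF13, and the 2 that fell were KLF2 and KLF9. Over all genes tested, 26.2% rose and 19.7% fell in this comparison, and among the 11681 genes with a mean value of at least 5, where all 10 KLFs lie, 22.4% rose and 32.5% fell. The split over all genes depended on scaling, since 57.1% of the genes called were higher with the values as deposited, 46.1% with library medians aligned and 46.7% after quantile normalization, while the KLF split of 8 and 2 was the same under all of these. In all 10 KLFs the H2O2 and untreated libraries did not overlap, which was so for 49.5% of all genes. The median KLF difference was 0.32 and the median absolute difference 0.38, beside 0.00 and 0.08 over all genes. All genes here include those with few reads, whose differences are shrunk most. Among genes with a mean value of at least 5 the median difference was -0.02, and their median absolute difference is not given here. Only KLF4 was differentially expressed with a difference over 1, as were 0.655% of all genes in the upward direction.

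Among the activators, KLF4, a factor of epithelial differentiation and growth arrest that is also used in reprogramming, had the largest response. Its rLog values were 7.69, 7.79 and 7.76 in untreated cells. They were 9.19, 8.92 and 9.06 at 4 h of H2O2, 8.70, 8.37 and 8.73 at 8 h, and 8.56, 8.49 and 8.54 at 24 h. In NCS they were 8.02, 8.19 and 8.19 at 4 h, then 8.07, 8.00 and 8.03 (8 h) and last 8.12, 8.02 and 8.04 (24 h). Every treated library was thus above every untreated one, and every H2O2 library above every NCS library. The rise was 1.31 at 4 h of H2O2 (SE 0.0773, adjusted p = 1.91e-10), or 2.48-fold on the shrunken scale, 0.85 at 8 h and 0.78 at 24 h. In NCS it was 0.39 at 4 h (SE 0.0773, adjusted p = 0.00144), 0.29 at 8 h and 0.31 at 24 h, which makes KLF4 the only member that rose in all 6 treated groups. The order of its groups was H2O2 at 4 h, then H2O2 at 8 and 24 h, which overlapped, then the 3 NCS groups, which overlapped, and untreated cells.

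KLF2, the closest relative of KLF4 in this list and a factor of quiescence in endothelial and T cells, went the other way. It was at 8.75, 8.998 and 8.71 in untreated cells and at 8.06, 8.04 and 8.01 at 4 h of H2O2. It came back in part to 8.63, 8.41 and 8.45 at 8 h and stood at 8.53, 8.56 and 8.50 at 24 h. The libraries at 4 h of H2O2 were the lowest of all 21. The fall was -0.79 at 4 h (SE 0.0694, adjusted p = 3.97e-08), -0.32 at 8 h and -0.29 at 24 h. In NCS the values were 8.86, 8.87 and 8.90 at 4 h, then 8.96, 8.98 and 8.82 (8 h) and last 8.13, 8.28 and 8.32 (24 h). NCS therefore left KLF2 without a called change at 4 h (0.06, interval -0.09 to 0.20) and 8 h (0.10, -0.05 to 0.25), and KLF2 fell at 24 h (-0.58, SE 0.0694, adjusted p = 1.51e-06). The difference at 8 h reached an adjusted p of 0.043 (0.19) without replicate 2 of the untreated cells, the highest KLF2 library.

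KLF5, a factor of proliferation in epithelial cells, and KLF6, a widely expressed factor with tumour suppressor functions, both rose at 4 h of H2O2 and were below untreated cells at 24 h. KLF5 was at 10.00, 9.95 and 9.85 in untreated cells, and at 10.33, 10.20 and 10.34 at 4 h and 9.72, 9.65 and 9.61 at 24 h of H2O2, so that the untreated libraries lay between these groups without overlap. It rose by 0.36 at 4 h (SE 0.0605, adjusted p = 9.06e-05) and was below untreated cells at 24 h (-0.27, SE 0.0605, adjusted p = 0.00111), whereas the 8 h difference of 0.13 was not called (interval 0.00 to 0.26). That difference was called when only genes averaging 5 or more were fitted (adjusted p = 0.0422), when replicate numbers formed a block (0.0499) and without replicate 3 of H2O2 at 8 h (0.18, adjusted p = 0.0354). In NCS, KLF5 stayed within 0.10 of untreated cells and was called at no time. KLF6 rose by 0.21 at 4 h of H2O2 (SE 0.0245, adjusted p = 1.32e-06), with values of 13.72, 13.69 and 13.70 against 13.48, 13.52 and 13.48, and fell below untreated cells at 8 h (-0.09) and 24 h (-0.26). It was lower than in untreated cells at each NCS time, with differences of -0.22 (4 h, adjusted p = 2.28e-06), -0.09 (8 h) and -0.18 (24 h). The 2 differences of -0.09 each turned on single libraries. Without replicate 2 of H2O2 at 8 h, the adjusted p was 0.0574 (-0.06), and in NCS at 8 h it was between 0.0519 and 0.061 without replicate 2 of the untreated cells, replicate 2 of NCS or replicate 3 of NCS.

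KLF7, a factor known for axon growth in neurons, moved least. Its 7 group means spanned 0.18, less than the median span of all genes (0.24), and in the order of its groups each overlapped the next. It was above untreated cells by 0.17 at 4 h (adjusted p = 0.00415), 0.18 at 8 h and 0.16 at 24 h of H2O2, and by 0.15 at 8 h of NCS (adjusted p = 0.0204). Without replicate 1 of the untreated cells the adjusted p was 0.0538 at 24 h of H2O2 (0.13) and 0.117 at 8 h of NCS (0.12), and the latter was also over 0.05 without replicate 3 of the untreated cells (0.0689) or replicate 1 of NCS (0.118). At 4 h of NCS it was 0.0743 (0.12) with all libraries and 0.016 (0.17) without replicate 2 of the untreated cells.

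KLF3, the CtBP-binding repressor of this list, was higher at every H2O2 time and lower or near its untreated level in NCS. It was at 9.42, 9.44 and 9.41 in untreated cells, 9.90, 9.76 and 9.82 at 4 h of H2O2 and 9.22, 9.26 and 9.16 at 4 h of NCS. These 3 groups did not overlap, with H2O2 above and NCS below untreated cells. The rise was 0.40 at 4 h (SE 0.0484, adjusted p = 2.01e-06), 0.27 at 8 h and 0.31 at 24 h of H2O2, and the fall in NCS -0.21 at 4 h (SE 0.0484, adjusted p = 0.00449). At 8 h of NCS the difference of -0.11 was not called, and at 24 h it was 0.02 (interval -0.08 to 0.13).

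Of the 4 members that can bind SIN3A, KLF10, KLF11 and KLF13 rose at 4 h of H2O2 and KLF9 fell. KLF10, an early gene of the TGF-beta response that restrains proliferation, had the smallest p of all members at 4 h of H2O2. Its values were 10.43, 10.45 and 10.40 in untreated cells, and 11.38, 11.20 and 11.32 at 4 h of H2O2, then 10.72, 10.60 and 10.62 (8 h) and last 10.55, 10.51 and 10.48 (24 h). The H2O2 libraries descended group by group without overlap between 4 and 8 h or between 8 and 24 h. The rise of 0.87 at 4 h (SE 0.0392, adjusted p = 5.43e-12), or 1.83-fold on the shrunken scale, went down to 0.22 at 8 h, and at 24 h the difference of 0.09 was not called (interval 0.00 to 0.17). In NCS it was at 10.49, 10.52 and 10.52 at 4 h, and no difference from untreated cells was called at any time, the estimates lying between -0.05 and 0.08, except at 4 h in a fit of the compared groups alone (adjusted p = 0.0475).

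KLF13, a factor known from the immune system and heart, also peaked at 4 h of H2O2 and came down afterwards. Its rise was smaller than that of KLF10 at 4 h (0.57 against 0.87) and larger at 8 h (0.28 against 0.22). KLF13 was at 11.03, 11.07 and 11.13 in untreated cells and at 11.68, 11.65 and 11.60 at 4 h of H2O2, then 11.34, 11.28 and 11.45 (8 h) and last 11.12, 11.15 and 11.21 (24 h). The libraries at 4 and 8 h lay above all untreated ones, and those at 24 h overlapped them. KLF13 rose by 0.57 at 4 h (SE 0.043, adjusted p = 5.29e-09) and 0.28 after 8 h, while the 24 h difference of 0.09 was not called, and no NCS difference was called (-0.04, -0.04 and -0.08). KLF11, like KLF10 induced early by TGF-beta, rose with H2O2 and fell with NCS at 4 h. Its values were 6.44, 6.32 and 6.39 in untreated cells, 6.80, 6.54 and 6.63 at 4 h of H2O2 and 5.97, 6.15 and 5.97 at 4 h of NCS, and none of these groups overlapped. The differences were 0.27 (SE 0.066, adjusted p = 0.00218) in H2O2 and -0.35 (SE 0.066, adjusted p = 0.000882) in NCS. At 8 h KLF11 was lower in NCS by -0.50 (adjusted p = 1.24e-05), the largest fall of any member in NCS at 4 or 8 h, and by -0.20 at 24 h (adjusted p = 0.02), while the H2O2 differences of -0.14 at 8 h and -0.14 at 24 h were not called. The NCS difference at 24 h had an adjusted p between 0.051 and 0.0826 when replicate 1 or 3 of the untreated cells or replicate 2 or 3 of NCS was left out.

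KLF9, which glucocorticoids and thyroid hormone are known to induce, was the one member that fell first and rose later in both treatments. Its values were 10.38, 10.28 and 10.31 in untreated cells. In H2O2 they were 10.20, 10.10 and 10.21 at 4 h, then 10.43, 10.30 and 10.27 (8 h) and last 10.72, 10.73 and 10.73 (24 h). In NCS they were 9.98, 9.96 and 10.00 at 4 h, then 10.18, 10.17 and 10.10 (8 h) and last 10.53, 10.50 and 10.54 (24 h). At 4 h all treated libraries were below the untreated ones and at 24 h all were above. The differences in H2O2 were -0.15 at 4 h (SE 0.0376, adjusted p = 0.00249), 0.01 at 8 h (not called) and 0.40 at 24 h (SE 0.0376, adjusted p = 5.09e-08), and in NCS -0.34 (adjusted p = 2.52e-06), -0.18 and 0.20 (adjusted p = 0.000211).

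**Figure D2:**
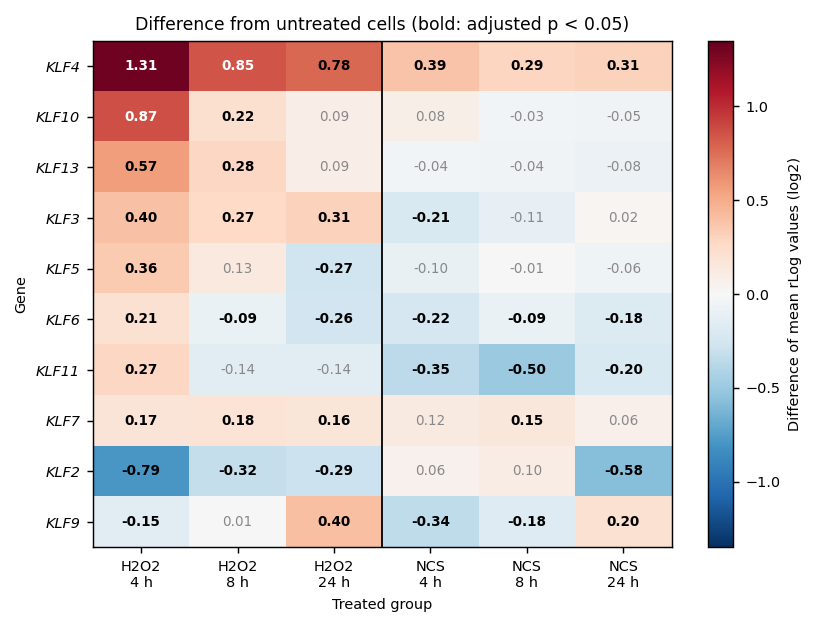
Log2 difference of group means from untreated cells for 10 KLF genes (rows) in 6 treated groups (columns), with bold numbers where the adjusted p was under 0.05; red is higher and blue lower. The column of H2O2 at 4 h is called in every row, from -0.79 for KLF2 to 1.31 for KLF4, and the NCS columns run from -0.58 (KLF2 at 24 h) to 0.39 (KLF4 at 4 h).

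At the later times and in NCS fewer members were called than at 4 h of H2O2. In H2O2, 5 rose and 2 fell at 8 h (18.8% and 18.6% of all genes), and 4 rose and 3 fell at 24 h (20.2% and 19.9%). Both counts depended on the processing. At 8 h there were 4 higher and 1 lower in a fit of the compared groups alone, and 6 and 2 among genes with a mean value of at least 5 or with the replicate number as a block. At 24 h there were 6 higher and 4 lower after quantile normalization, 5 and 4 in a fit of the compared groups alone and 4 and 4 with library medians aligned. The calls lost at 8 h were those of KLF6 (adjusted p = 0.114) and KLF7 (0.0577). Those gained at 24 h were KLF11 under all 3 alternatives (-0.14 to -0.17), KLF10 after quantile normalization (0.13) and in the compared groups alone (0.09), and KLF13 after quantile normalization (0.14). In NCS, KLF4 rose and KLF3, KLF6, KLF9 and KLF11 fell at 4 h (7.47% and 9.72% of all genes). At 8 h KLF4 and KLF7 rose and KLF6, KLF9 and KLF11 fell (10.5% and 13.3%), and at 24 h KLF4 and KLF9 rose and KLF2, KLF6 and KLF11 fell (19.6% and 18.4%). These counts depended on the processing too. At 4 h KLF10 was also called higher in a fit of the compared groups alone (0.08, adjusted p = 0.0475), which gave 2 higher and 4 lower. At 8 h KLF3 was also called lower with library medians aligned (-0.13, adjusted p = 0.0339; 2 higher and 4 lower), KLF6 was not called after quantile normalization (-0.07, adjusted p = 0.0658; 2 and 2), and KLF7 was not called in a fit of the compared groups alone (adjusted p = 0.133; 1 and 3). At 24 h KLF7 was also called higher after quantile normalization (0.12, adjusted p = 0.0439; 3 and 3). A two-sided exact permutation test of 3 libraries against 3 cannot give a p below 0.1, and it gave this p for 10 members at 4 h of H2O2, 8 at 8 h and 9 at 24 h, and for 7, 5 and 6 members at the 3 NCS times. Over all genes, the libraries of both groups did not overlap for 49.5%, 42% and 59.7% in H2O2 and 30%, 33.8% and 44.5% in NCS.

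The direct comparison of H2O2 with NCS does not use the means of the untreated cells, which enter the fit only through the shared estimate of the spread. At 4 h, 8 members were higher in H2O2, KLF2 was lower and KLF7 was not called (0.05, interval -0.05 to 0.15), while 26.3% of all genes were higher and 18% lower. Among genes with a mean value of at least 5 the shares turned, with 22.8% higher and 29.6% lower, and after quantile normalization 45.9% of the genes called were higher, against 59.3% as deposited. The largest differences were those of KLF4 (0.92, SE 0.0773, adjusted p = 2.01e-08), KLF10 (0.79, SE 0.0392, adjusted p = 2.41e-11) and KLF2 (-0.84, SE 0.0694, adjusted p = 1.63e-08). KLF11 (0.62), KLF3 (0.61), KLF13 (0.61), KLF5 (0.45), KLF6 (0.43) and KLF9 (0.19) followed. The median KLF difference was 0.53, and the median was 0.01 over all genes and -0.01 among genes with a mean value of at least 5. At 8 h 6 members were higher in H2O2 and KLF2 was lower (18.7% and 15.4% of all genes), with KLF6 at 0.00 (interval -0.05 to 0.05) and KLF5 at 0.14 not called. KLF5 was called with library medians aligned (0.16, adjusted p = 0.0146), when only genes averaging 5 or more were fitted (0.035), when replicate numbers formed a block (0.0422) and without replicate 3 of H2O2 at 8 h (0.19, adjusted p = 0.0315).

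At 24 h 6 members were higher in H2O2, now with KLF2 among them, and KLF5 and KLF6 were lower (11% and 10.9% of all genes). KLF4 (0.47, SE 0.0773, adjusted p = 0.00019), KLF3 (0.29) and KLF2 (0.29) had the largest differences. KLF9 stood higher in H2O2 than in NCS by 0.19 at 4 h, 0.19 at 8 h and 0.20 at 24 h, although its level went down and up in both. The difference of KLF6 at 24 h (-0.08, adjusted p = 0.0307) had an adjusted p between 0.0692 and 0.14 without any 1 of the 3 H2O2 libraries or replicate 1 or 2 of NCS. That of KLF5 (-0.22, adjusted p = 0.0137) had an adjusted p of 0.0616 without replicate 3 of H2O2 and 0.0617 without replicate 1 of NCS, and that of KLF10 (0.14, adjusted p = 0.0178) 0.0794 without replicate 1 of H2O2 and 0.0903 without replicate 3 of NCS. After quantile normalization, and likewise in a fit of the compared groups alone, the split at 24 h was 6 higher and 1 lower.

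**Figure D3:**
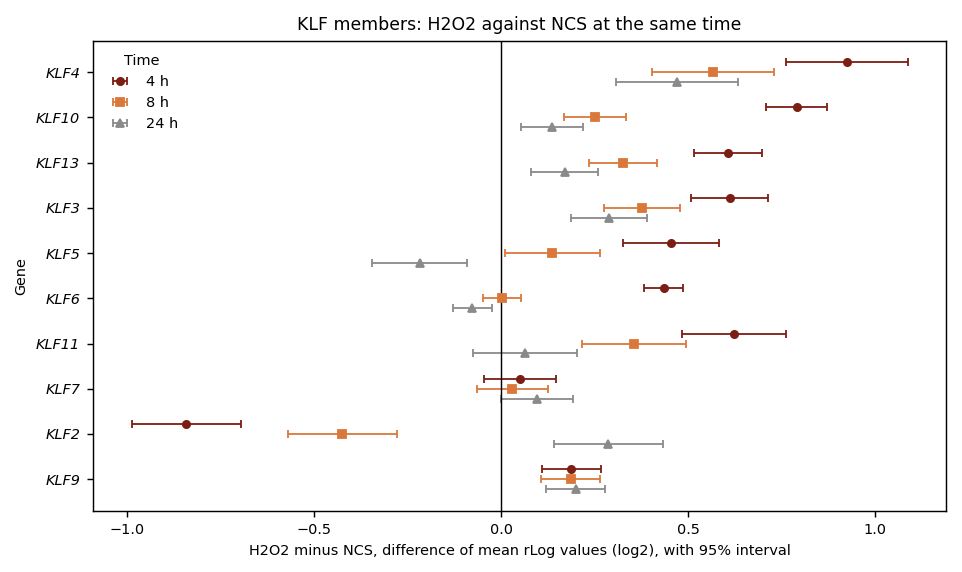
H2O2 minus NCS at 4, 8 and 24 h for 10 KLF genes, as log2 differences of group means with 95% intervals. Most genes move toward 0 with time, KLF2 crosses from -0.84 to 0.29, KLF5 and KLF6 cross to below 0, and KLF9 stays at 0.19 to 0.20.

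Whether the difference between the treatments itself changed from 4 to 24 h was tested in the same fit. It went up for KLF2 (1.13, SE 0.0981, adjusted p = 6.75e-08) and down for 7 members, where 16.6% of all genes went up and 22.7% down. Among genes with a mean value of at least 5 these shares turned, with 27.1% up and 22% down, and after quantile normalization 51.7% of the genes called went up, against 42.3% as deposited. The falls were those of KLF5 (-0.67, SE 0.0856, adjusted p = 6.28e-06), KLF10 (-0.65), KLF11 (-0.56), KLF6 (-0.51), KLF4 (-0.45), KLF13 (-0.44) and KLF3 (-0.32). For KLF7 (0.05, interval -0.09 to 0.18) and KLF9 (0.01, interval -0.10 to 0.12) no such change was called.

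Within H2O2, the step from 4 to 8 h brought 7 members down, KLF3, KLF4, KLF5, KLF6, KLF10, KLF11 and KLF13, and KLF2 and KLF9 up (27.7% of all genes were lower and 18% higher). Of the genes called in this step, 39.4% were higher as deposited, 48.4% after quantile normalization and 50.5% among genes with a mean value of at least 5. KLF10 fell by 0.65 (SE 0.0392, adjusted p = 4.29e-10), KLF4 by 0.46 and KLF11 by 0.42, and KLF2 rose by 0.46 (SE 0.0694, adjusted p = 2.57e-05). The fall of KLF3 (-0.13, adjusted p = 0.0367) was not called without replicate 1 of H2O2 at 4 h (0.175), replicate 3 at 4 h (0.067), replicate 2 at 8 h (0.228) or replicate 3 at 8 h (0.0855), nor with library medians aligned (-0.12, adjusted p = 0.054). In a fit of the compared groups alone, 5 members were lower and 1 higher in this step, the calls of KLF3 (adjusted p = 0.213), KLF5 (0.0662) and KLF9 (0.0578) being lost. From 8 to 24 h KLF9 rose by 0.39 (SE 0.0376, adjusted p = 9.90e-08), and KLF5 (-0.40), KLF6 (-0.17), KLF10 (-0.13) and KLF13 (-0.19) fell (19.4% of all genes were higher and 23.2% lower). The step of KLF10 was not called after quantile normalization (-0.10, adjusted p = 0.0501), which left 1 member higher and 3 lower, and had an adjusted p of 0.0756 without replicate 1 at 8 h, and that of KLF4, -0.07 and not called with all libraries, was -0.19 with an adjusted p of 0.0233 without replicate 2 at 8 h, its lowest library of that group.

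Within NCS, KLF6 (0.14) and KLF9 (0.17, SE 0.0376, adjusted p = 0.00511) rose from 4 to 8 h and no member fell (6.16% of all genes were higher and 7.5% lower) with the values as deposited. KLF10 (-0.12, adjusted p = 0.061) was called lower in this step with library medians aligned (-0.13, adjusted p = 0.0288), when only genes averaging 5 or more were fitted (0.0246), in a fit of the compared groups alone (0.0408) and when replicate numbers formed a block (0.0341). From 8 to 24 h KLF9 (0.38, SE 0.0376, adjusted p = 2.65e-07) and KLF11 (0.30) rose and KLF2 (-0.68, SE 0.0694, adjusted p = 4.00e-07) and KLF6 (-0.09) fell (14.9% and 15%). The rise of KLF3 in this step, 0.13 and not called, was called under some alternatives. It was not called with no mean-variance trend, nor with any library of these groups left out other than replicate 1 of NCS at 8 h. Its adjusted p of 0.05003 became 0.00627 with library medians aligned (0.16), 0.0143 after quantile normalization (0.17), 0.0218 when only genes averaging 5 or more were fitted, 0.026 in a fit of the compared groups alone, 0.0322 when replicate numbers formed a block and 0.0334 (0.16) without replicate 1 of NCS at 8 h. The rise of KLF9 was thus called in both steps of NCS and both steps of H2O2, the step from 4 to 8 h of H2O2 (0.16) not in a fit of the compared groups alone (adjusted p = 0.0578).

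The spread of a member over the 7 group means was 1.31 for KLF4, 0.92 for KLF10, 0.89 for KLF2, 0.78 for KLF11, 0.74 for KLF9, 0.65 for KLF13, 0.63 for KLF5, 0.61 for KLF3, 0.47 for KLF6 and 0.18 for KLF7. The median span was 0.70 over the members and 0.35 over genes with a mean value of at least 5. By the root-mean-square difference of centred group means over the 7 groups, the closest members were KLF5 and KLF6 (0.08) and KLF10 and KLF13 (0.11), and the farthest were KLF2 and KLF4 (0.67). By the Pearson correlation over the same means, KLF10 and KLF13 (0.95) were closer than KLF5 and KLF6 (0.91). KLF4 was the one member whose means spanned over 1, and the 3 genes of 11681 with the most similar pattern were TRIB1, a pseudokinase (0.06), RND3 (0.09), and PPP1R15A, a phosphatase subunit of the integrated stress response (0.12). TRIB1 went from 7.52 in untreated cells to 8.96, 8.53 and 8.33 in H2O2 and 8.01, 7.96 and 7.97 in NCS. By the Pearson correlation of the 7 means, which ignores amplitude, TRIB1 was again first (r = 0.99), and 1 of 3 genes was shared by both measures. These likenesses are over 7 points that share libraries.

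**Figure D4:**
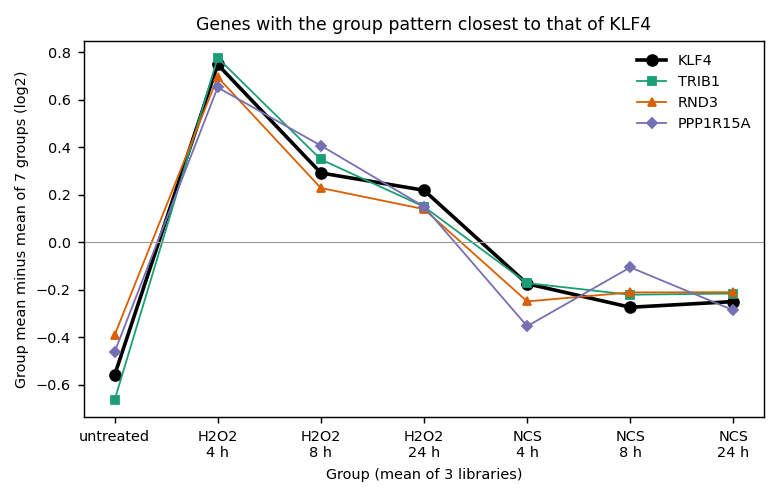
Group means of KLF4, TRIB1, RND3 and PPP1R15A, each minus its own mean over the 7 groups (log2 scale). All 4 genes are highest at 4 h of H2O2, lower at 8 and 24 h and lowest in untreated cells, and PPP1R15A departs from KLF4 at 4 and 8 h of NCS.

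The rest of the family was examined in the same fit. Of 8 other KLF genes, 7 had varying values, and at 4 h of H2O2 KLF16 and KLF1 rose, KLF12 fell and 4 were not called, KLF1 with a difference of 0.05 at the bottom of the scale. Of all genes tested, 26.2% rose and 19.7% fell in this comparison. KLF12, like KLF3 a CtBP-binding repressor, went from 10.52, 10.43 and 10.40 in untreated cells to 9.84, 9.92 and 9.93 at 4 h of H2O2 and 10.11, 10.16 and 10.20 at 4 h of NCS, 3 groups that did not overlap. The falls were -0.55 (SE 0.0331, adjusted p = 2.40e-10) and -0.29 (SE 0.0331, adjusted p = 3.83e-06), and KLF12 was above untreated cells at 24 h of H2O2 (0.22) and NCS (0.25). At 4 h it was lower in H2O2 than in NCS (-0.26), where KLF9 was higher (0.19). KLF16, a SIN3A-binding relative of KLF9 and KLF13, was higher at 4 h of H2O2 (0.29, adjusted p = 1.54e-05). It was lower at 24 h of H2O2 (-0.32) and at 8 h (-0.13, adjusted p = 0.028) and 24 h (-0.31) of NCS. KLF15 fell at 4 h of NCS (-0.38, adjusted p = 0.000543) and at 8 h of H2O2 (-0.19, adjusted p = 0.0301). KLF8 rose at 24 h of H2O2 (0.31) and at 8 h (0.35) and 24 h (0.33) of NCS. KLF14 and KLF17 lay near the bottom of the scale and were not called against untreated cells.

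Of 9 SP genes, which encode the factors that share GC boxes with the KLFs, 8 had varying values. At 4 h of H2O2 SP6 (0.23) and SP7 (0.12, at low values) rose, SP4 fell (-0.45), and SP1 (-0.01, interval -0.06 to 0.03), SP2 and SP3 were not called. At 4 h of NCS 1 of 8 was called, SP1 at -0.09. Of all genes tested, 26.2% rose and 19.7% fell at 4 h of H2O2, and 7.47% rose and 9.72% fell at 4 h of NCS. SP3 fell at 24 h of both H2O2 (-0.27) and NCS (-0.31).

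**Figure D5:**
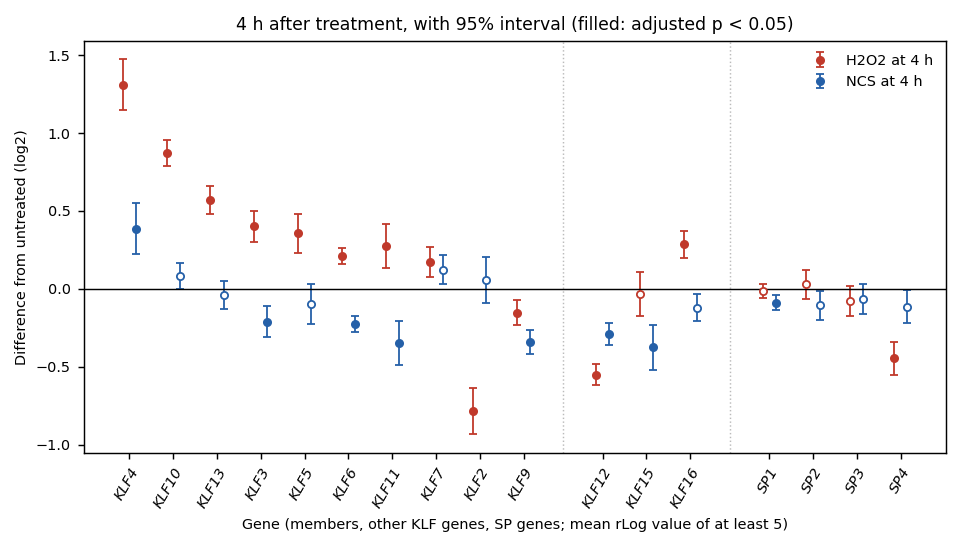
Log2 difference from untreated cells at 4 h of H2O2 (red) and NCS (blue) with 95% intervals, for the 10 KLF members, 3 other KLF genes and 4 SP genes with a mean value of at least 5; filled points have an adjusted p under 0.05. The members run from 1.31 (KLF4) to -0.79 (KLF2) in H2O2, and the SP genes lie near 0 apart from SP4 (-0.45).

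Genes that act with or upstream of KLFs were examined from lists compiled by hand, and their counts at 4 h stand beside those over all genes, of which 26.2% rose and 19.7% fell in H2O2 and 7.47% rose and 9.72% fell in NCS. Among genes with a mean value of at least 5 the shares were 22.4% and 32.5% in H2O2 and 11.9% and 15.9% in NCS. Of 10 corepressors and coactivators, none rose and 4 fell at 4 h of H2O2 (SIN3A, SIN3B, EP300 and CREBBP), and none rose and 4 fell at 4 h of NCS (SIN3A, EP300, CTBP2 and HDAC3). SIN3A, the scaffold that KLF9, KLF10, KLF11 and KLF13 recruit, fell in all 6 treated groups, by -0.53 at 4 h of H2O2 (SE 0.0322, adjusted p = 3.17e-10) and -0.35 at 4 h of NCS. CTBP1 (-0.02) and CTBP2 (0.07), the partners of KLF3, were not called at 4 h of H2O2, and CTBP2 was higher in H2O2 than in NCS (0.22). The acetyltransferase gene EP300 fell at 4 h of both H2O2 (-0.18) and NCS (-0.14). Of 6 ubiquitin ligases known to act on KLF proteins, 4 fell at 4 h of H2O2, and none rose. They were VHL (-0.31) and BTRC (-0.25), which are known to act on KLF4, WWP1 (-0.15), which acts on KLF2 and KLF5, and SMURF2 (-0.06). FBXW7, which acts on KLF2 and KLF5, rose at all NCS times (0.38, 0.32 and 0.31) and at 8 h (0.49) and 24 h (0.22) of H2O2.

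The ERK5-MEF2 pathway, which is known to activate KLF2 and KLF4, had 2 of 7 genes higher and 2 lower at 4 h of H2O2. MAPK7, the gene of ERK5, fell at 4 h of H2O2 (-0.34) and not in NCS (0.05, not called), and the direct difference was -0.39. MEF2A rose at 4 h of both H2O2 (0.38) and NCS (0.17). Of 6 genes of SRF, its ternary complex partners and its coactivators, 1 rose and 3 fell at 4 h of H2O2, with MKL2 at -0.86 and MKL1 at -0.40, and SRF itself rose at 4 h of NCS (0.24). Of 12 TGF-beta pathway genes, 3 rose and 3 fell at 4 h of H2O2. The negative regulators SKIL (0.96) and SMAD7 (0.93), themselves targets of the pathway like KLF10 and KLF11, rose most, and in NCS they rose by 0.27 and 0.20. SMAD3 was lower at every time in both treatments, from -0.19 to -0.46.

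Of 7 genes of the glucocorticoid receptor list, the group to which KLF9 is linked, 5 rose and 2 fell at 4 h of H2O2. TSC22D3, a glucocorticoid-induced leucine zipper gene, rose by 1.07, 1.07 and 0.98 at the 3 H2O2 times and by 0.34 at 24 h of NCS. ZBTB16 fell at 4 h of both (-0.69 and -0.38), as did KLF9, whereas DUSP1 (0.60 and 0.20) and SGK1 (0.51 and 0.21) rose there. Of 10 genes linked to KLFs in the literature, 4 rose and 2 fell at 4 h of H2O2 and 6 rose at 4 h of NCS. CDKN1A, the p21 gene that KLF4 and KLF6 can activate, rose in all 6 groups, by 1.21, 1.62 and 1.57 in H2O2 and 1.58, 1.47 and 1.48 in NCS, and at 4 h it was lower in H2O2 than in NCS (-0.37), where KLF4 was higher by 0.92. CCND1 was higher at 24 h in both (0.28 and 0.30), as was LGALS3 (0.51 and 0.52). Whether KLFs had a part in the changes of CDKN1A or other genes of this list was not tested.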

How the data were processed

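RNA of 21 libraries, 7 groups of 3, was measured by RNA-seq (TruSeq Stranded mRNA). Per the labels and methods, the authors aligned reads with HISAT2 to hg19, used htseq-count to count reads over genes, and deposited the log2-scale rLog values of DESeq2. Tool versions and the strand setting of the counting are not given in the sources used here, so genes that overlap KLF3, KLF7, KLF11 and KLF13 in GENCODE v29 could share reads with them. The values, from -2.31 to 20.31, hold no depth.

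The values were used without further normalization, and 3674 genes with the same value in every library were left out. Tests between groups used limma 3.58.1 (R 4.3.3) and a single fit of 7 groups with a mean-variance trend, two-sided, with Benjamini-Hochberg adjustment over 19694 genes. There were 14 comparisons. The fit was tested on simulated data. The smallest exact permutation p, for 3 libraries against 3, is 0.1. The limma p-values weigh each group difference against the spread between replicates, pooled over the 7 groups and moderated across genes. They reflect no spread beyond that of these replicates.

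The members and lists were chosen with earlier results of these data known. Genes named are the members, genes of the hand-made lists (other KLF and SP genes, cofactors, ERK5-MEF2, SRF, TGF-beta, glucocorticoid receptor, ubiquitin ligases and genes linked to KLFs) and, for members whose group means span over 1, the 3 genes with the closest pattern. Of a further list of transcripts antisense to or within KLF genes, KLF3-AS1, KLF7-IT1 and KLF15-AS1, none was among the genes tested. Alternatives were quantile normalization, aligned library medians, only genes whose mean reached 5, a fit of the compared groups alone, no trend, the replicate number as a block, log2 limits of 0.58 and 1, and each library left out. Promoters were searched with Python 3.11.15, pandas 2.3.3 and numpy 2.4.6. A few of the genes these rules select are not reported here.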

Additional observations from a re-analysis of the deposited data

Results flagged for a closer look

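For 8 of 10 members the difference between H2O2 and NCS at 24 h was not that at 4 h, by limma's test of the change itself. Of all genes tested, 16.6% went up and 22.7% down in this test. Among genes with a mean value of at least 5 that split turned, and 55.1% of the genes called went up. The change in H2O2 minus NCS on the log2 scale was 1.13 for KLF2, whose difference went from -0.84 to 0.29. It was -0.67 for KLF5 (0.45 to -0.22) and -0.51 for KLF6 (0.43 to -0.08), which also crossed 0. It was -0.65 for KLF10 (0.79 to 0.14), -0.56 for KLF11 (0.62 to 0.06), -0.45 for KLF4 (0.92 to 0.47), -0.44 for KLF13 (0.61 to 0.17) and -0.32 for KLF3 (0.61 to 0.29), all toward 0. These 8 were called when any 1 of the 12 libraries at 4 and 24 h of H2O2 and NCS was left out. The cause was not tested.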

How the results depend on the processing

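No member result reversed under any alternative. Of 140 member results, 140 kept their side of the threshold with no mean-variance trend, 136 among genes with a mean value of at least 5, 134 with library medians aligned, 132 after quantile normalization and 128 in fits of the compared groups alone. With 1 library of the compared groups left out, 868 results stayed on their side, 26 lost their call and 6 gained one. With a log2 limit of 0.58, 3 members were left at 4 h of H2O2 (KLF4, KLF10 and KLF2), 1 at 8 h and 1 at 24 h (KLF4), 9 in H2O2 minus NCS at 4 h became 6, and 3 were left in the change of that difference, 1 from 4 to 8 h of H2O2 (KLF10), 1 from 8 to 24 h of NCS (KLF2) and 0 elsewhere, KLF2 at 24 h of NCS (-0.58) lying just short. With a limit of 1, 1 was left at 4 h of H2O2 (KLF4), 1 in the change of the difference (KLF2) and 0 elsewhere. Shares of all genes at these limits are not given here, apart from the 0.655% that rose by over 1 at 4 h of H2O2. These counts therefore describe the members only. With 1 such library left out, the number of members called was 10 to 10, 6 to 8 and 6 to 7 in H2O2 at 4, 8 and 24 h, 5 to 6, 4 to 5 and 4 to 5 in NCS, 9 to 9, 7 to 8 and 6 to 7 between the agents (8 at 24 h with all libraries), 8 to 9 and 4 to 6 in the steps of H2O2, 2 to 2 and 4 to 5 in those of NCS, and 8 to 8 in the change of the difference. With medians aligned, the genes called over the whole table went from 4703 to 7618 in NCS at 8 h, from 4315 to 7585 between the agents at 24 h and from 5883 to 9825 from 8 to 24 h of NCS, and 22.7% to 74.5% of the genes called were higher, against 39.4% to 59.3% as deposited. That alignment shifted the median difference of all genes by at most 0.03.

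Replicate numbers recur across groups, and the labels do not say that they pair libraries. Deviations from group means correlated by 0.0274 on average for the same number and by -0.0137 for different numbers, and in no comparison was every pair over 0.1. The 3 deviations of a group sum to 0, so the second average is tied to the first and says nothing more about pairing. As a hint from the data, all 3 libraries correlated best with their own number in H2O2 against NCS at 8 h (mean 0.14) and 24 h and in NCS at 24 h against untreated cells. With the replicate number as a block, 136 of 140 member results were the same and 4 passed the threshold, KLF5 at 8 h of H2O2 (0.13) and against NCS (0.14), and within NCS KLF10 from 4 to 8 h (-0.12) and KLF3 from 8 to 24 h (0.13). The rLog transformation shrinks differences and hides depth, so a difference that was not called may have been too small to detect here.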
